A study of Mus musculus with 13 samples.

Results

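The interferon-stimulated genes examined here are 43 genes of the antiviral interferon program, followed in bulk RNA of mouse brain through cuprizone feeding and recovery. They were taken by gene symbol from a list of interferon-stimulated genes (the row with most counts where a symbol repeats), without a threshold on their change, and are 43 of the 55401 genes in the deposited table. Interferons are cytokines made by cells that sense foreign or misplaced nucleic acid. Type I interferons bind a receptor that activates JAK kinases, which phosphorylate STAT proteins. Together with IRF9 these form a complex that binds interferon-stimulated response elements in promoters and switches on genes that block viral replication, present antigen and feed back on the pathway itself. In brain, microglia, astrocytes and endothelial cells can all respond in this way.

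Bulk RNA was measured in 1 brain hemisphere each of 13 male C57BL/6J mice without a transgene or deletion named in the labels or methods. CTL mice (n = 5) received control chow for 6 weeks. CPZ mice (n = 4) received chow with 0.3% cuprizone, a copper chelator that kills oligodendrocytes, for 4 weeks and were collected at week 4. RCV mice (n = 4) received the same cuprizone chow for 4 weeks, then control chow for 2 weeks, and were collected with the CTL mice at week 6, 2 weeks after the CPZ mice. RCV sample titles start with the letters Veh, without any further treatment named in the labels. The labels give an age of 6 to 8 weeks and the study an older one. The treatment protocol states fewer mice per group than there are libraries, while the study elsewhere describes as many bulk samples as were used here. Libraries held 4605100 to 8197289 counts. Levels are in CPM (counts per library size, TMM-scaled), and a gene was called when its adjusted p from edgeR's quasi-likelihood test over 14985 genes was below 0.05. CPZ and RCV mice were each compared with the same CTL mice, so these comparisons share the control libraries.

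After 4 weeks of cuprizone, most of the interferon-stimulated genes stood well above control. Between CPZ and CTL, 39 of the 42 members that passed the filter on low counts were called higher and 0 lower, where 7.66% of all tested genes were called higher and 2.5% lower. Stat2, Cmpk2 and Adar were not called. Without CPZ replicate 1, 37 were called. The fold change was above 0 for 41 of 42 members (45.4% of all tested genes). The median log2 fold change of the 42 members was 1.60, against -0.02 for all genes, and single values ran from -0.08 for Adar to 4.06 for Zbp1. Of the 42, 8 passed the filter only because of the CPZ libraries and could hardly have failed to differ, namely Isg15, Zbp1, Oas1a, Oas2, Mx1, Mx2, Phf11d and Ifi27l2a. Among the 34 members that passed it on the CTL and RCV libraries alone, 31 were called higher, with a median of 1.43. For 39 members every CPZ library was above every CTL library (8.25% of all tested genes).

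At 2 weeks after the return to control chow, the means of most of these genes lay between those of the other groups. The order of the group means was CTL, then RCV, then CPZ for 42 of the 43 members. How often this order occurs among all tested genes was not counted. In some members, such as Ifit2, Ifitm3 and Rsad2, every RCV value lay within the CTL range. Between RCV and CTL, Gbp3 was the 1 member called higher and 0 were called lower, where 0.36% of all tested genes were called higher and 0.0133% lower. At an unadjusted p below 0.05, 23 members were higher (6.2% of all tested genes passed in either direction). The fold change was above 0 for 41 of 42 members (48.6% of all tested genes), with a median of 0.60. All RCV libraries were above all CTL libraries for 11 members (2.21% of all tested genes), namely Irf7, Isg15, Oas1a, Ifit3, Bst2, Trim30a, Gbp2, Gbp3, Iigp1, Dtx3l and Rtp4. Between CPZ and RCV, 26 members were called higher in CPZ and 0 lower, where 5.13% of all tested genes were called higher and 1.88% lower. The median was 0.91, and the groups did not overlap for 31 members (8.26% of all tested genes). Without CPZ replicate 1, 16 members were called between CPZ and RCV. These comparisons of CPZ and RCV include the 8 members that passed the filter only because of the CPZ libraries.

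**Figure D1:**
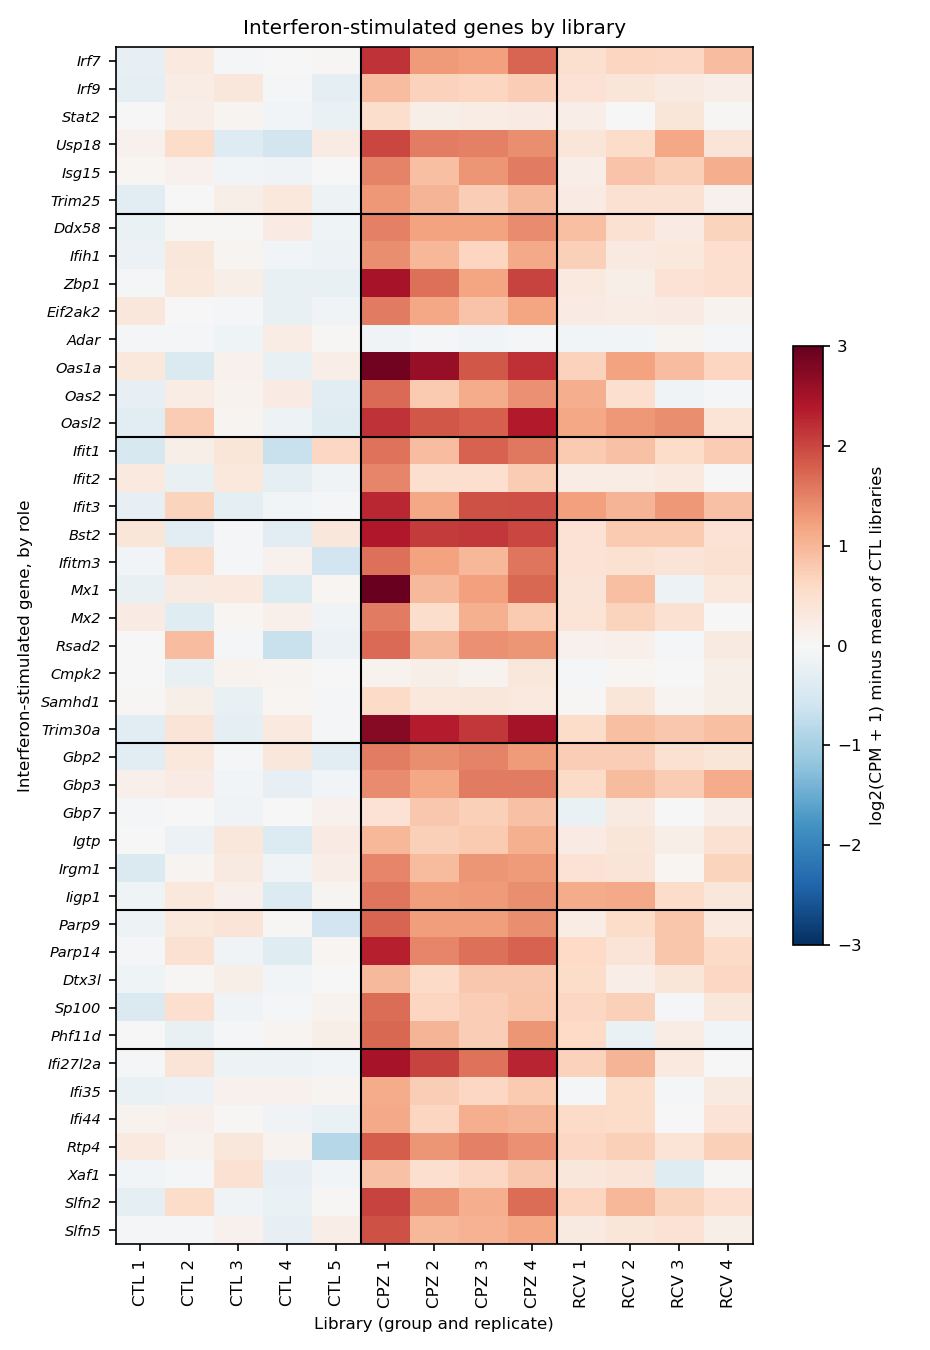
Values of the 43 interferon-stimulated genes (rows, grouped by role) in the 13 libraries (columns), as log2(CPM + 1) minus the mean of the 5 CTL libraries. Red is above and blue below the CTL mean. The 4 CPZ columns are red in nearly every row, the 4 RCV columns are paler, and the rows of Adar, Cmpk2 and Stat2 stay near white.

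The 4 CPZ libraries were not at the same level. CPZ replicate 1 held the highest value of all 13 libraries for 35 of the 43 members, and CPZ replicate 4 for 5. The mean log2 CPM over the 42 members was 3.82 in CPZ replicate 1, 3.24 in replicate 2, 3.28 in replicate 3 and 3.50 in replicate 4. It ran from 1.78 to 2.15 in CTL and from 2.43 to 2.63 in RCV libraries, so the groups did not overlap.

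Markers of microglia moved in the same direction. Of 15 microglial markers, 15 were called higher in CPZ than CTL, with a median log2 fold change of 2.65, and 1 of 15 was called higher in RCV than in CTL, with a median of 1.02. Their summed level was 426 to 516 CPM in CTL, 1525 to 3226 in CPZ and 663 to 918 in RCV libraries, and each had counts in all 13 libraries. CPZ replicate 1 was also highest in these markers, and replicate 2 came next. In interferon-stimulated genes, replicates 2 and 3 were the lowest CPZ libraries and close together, at 3.24 and 3.28. Of 10 astrocyte markers, 5 were called higher in CPZ (median 0.29) and 2 in RCV than in CTL (median 0.10), with a summed level of 4352 to 4783 CPM in CTL, 5098 to 6127 in CPZ and 5085 to 5730 in RCV libraries. Markers of mature oligodendrocytes were lower in CPZ, with 10 of 10 called. Of 10 neuronal and 10 endothelial markers, 0 were called in CPZ against CTL, with 0 neuronal and 2 endothelial genes at an unadjusted p below 0.05. Between RCV and CTL, 0 neuronal markers were called, and 1 endothelial marker was called lower (adjusted p = 0.026). Over all tested genes, 0.0133% were called lower there. The median of the 10 endothelial markers between RCV and CTL was -0.11. Red blood cell genes (5) and choroid plexus genes (7) gave 0 calls in CPZ or RCV against CTL, and 2 of the 5 red blood cell genes were called lower in CPZ than in RCV. RCV replicates 3 and 4 held almost no choroid plexus RNA, with a summed level of 19.8 and 14.5 CPM for its 7 genes, against 424 to 2768 in CTL, 623 to 2366 in CPZ and 496 and 1443 in the other RCV libraries. The median of these genes between RCV and CTL was -1.10, with 0 of 7 at an unadjusted p below 0.05. Without RCV replicate 3 or without RCV replicate 4, 1 interferon-stimulated gene was called between RCV and CTL and 20 between CPZ and RCV. The 1 gene was Gbp3 without replicate 3. Without replicate 4 it was Oasl2 (adjusted p = 0.0479), and Gbp3 was no longer called (adjusted p = 0.0784). The part of these cell types in the changes described here was not tested, and in bulk tissue more cells of a type and more RNA per cell cannot be told apart.

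Most markers of white blood cells were too low to be tested. The 8 genes of blood monocytes and neutrophils were all too low to be tested, with a summed level of 0.144 to 1.55 CPM in CPZ libraries and up to 11.9 CPM in CTL libraries. Of 9 lymphocyte genes, 2 could be tested and 0 were called. In the list for plasmacytoid dendritic cells, the main producers of type I interferon in blood, 2 of 5 genes could be tested, Siglech and Cox6a2, and both were called higher in CPZ. Siglech is also a gene of microglia. Of the genes of this list too low to be tested, Ccr9 held 5 counts in CPZ, 12 in CTL and 4 in RCV libraries. Klk1 held 1 count in all, and Cd300c was at 0 in every library.

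**Figure D2:**
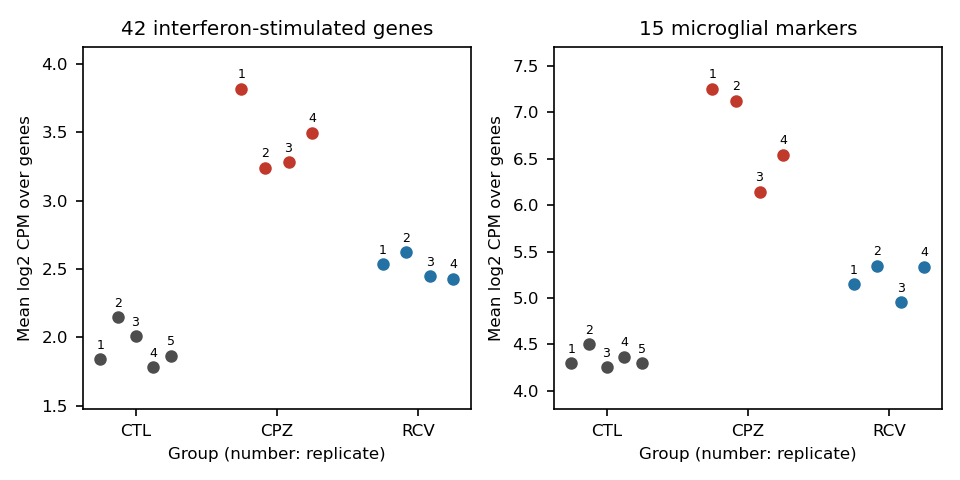
Mean log2 CPM over the 42 tested interferon-stimulated genes (left) and over 15 microglial markers (right), 1 point per mouse, with the replicate number above it. The 3 groups do not overlap in either panel. CPZ replicates 2 and 3 are close together on the left, at 3.24 and 3.28, and are at 7.12 and 6.15 on the right.

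Promoter sequence around the start of transcription was examined as a description. The genes were chosen as interferon-stimulated, so response elements in their promoters are not independent of that choice. RefSeq windows of 250 bases before to 50 bases after the start (GRCm38.p6) were found for 33 of the 43 members. The core of the interferon-stimulated response element, searched as GAAANNGAAA on both strands, occurred in 18 of the 33 members and in 3.99% of the 27025 genes with a window. Some members had overlapping or repeated matches, and 28 matches were counted in all. The core of the gamma-activated sequence, the letters bound by STAT dimers, searched as TTCNNNGAA, which reads the same on both strands, occurred in 10 of the 33 members and in 9.55% of all genes. Matches of the GAS-like letters overlapped those of the ISRE-like letters in part in Bst2 and Ifitm3. Such matches describe the letters only.

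In 11 members a GAAANNGAAA match lay wholly before both the RefSeq start and that of the GENCODE gene of the same symbol, and 9 of these stretches are shown to let the spacing and strand of the matches be compared. They run 5′ to 3′ on the strand of the gene, with matches in capitals, and read TTTCNNTTTC where the match is on the opposite strand.
Isg15: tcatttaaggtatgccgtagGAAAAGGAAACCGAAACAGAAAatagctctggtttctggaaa
Bst2: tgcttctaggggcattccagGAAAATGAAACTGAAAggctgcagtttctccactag
Oas1a: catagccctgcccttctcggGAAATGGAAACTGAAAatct
Ifit1: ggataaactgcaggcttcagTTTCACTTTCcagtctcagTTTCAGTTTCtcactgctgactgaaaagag
Ifit3: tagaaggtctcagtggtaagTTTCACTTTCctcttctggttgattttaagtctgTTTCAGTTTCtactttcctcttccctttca
Gbp3: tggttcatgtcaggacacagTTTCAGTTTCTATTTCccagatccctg
Trim30a: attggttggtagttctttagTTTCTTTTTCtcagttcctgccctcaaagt
Rsad2: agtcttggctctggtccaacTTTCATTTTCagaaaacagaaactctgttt
Stat2: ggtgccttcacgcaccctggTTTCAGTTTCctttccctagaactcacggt
The stretches are, in GRCm38.p6, chr4:156200855-156200916 (minus strand) for Isg15, chr8:71537567-71537622 (minus) for Bst2 and chr5:120907526-120907565 (minus) for Oas1a. Those of Ifit1 and Ifit3 are chr19:34640765-34640833 and chr19:34583353-34583436, both on the plus strand. The others are chr3:142559979-142560025 (plus) for Gbp3, chr7:104465200-104465249 (minus) for Trim30a, chr12:26456543-26456592 (minus) for Rsad2 and chr10:128270256-128270305 (plus) for Stat2. Isg15, Bst2, Oas1a and Gbp3 hold matches that overlap each other, 3 in Isg15 and 2 in each of the others, whereas the 2 matches of Ifit1 and of Ifit3 stand apart. Of the 18 members with a match, 17 were called higher in CPZ than CTL, and Stat2 was not. Of the 15 members with a window but no match, 12 were called higher, among them Irf7, Oasl2 and Ifit2. Cmpk2 and Adar, the other two members not called, had no match, nor had Ifi44, which was not tested.

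**Figure D3:**
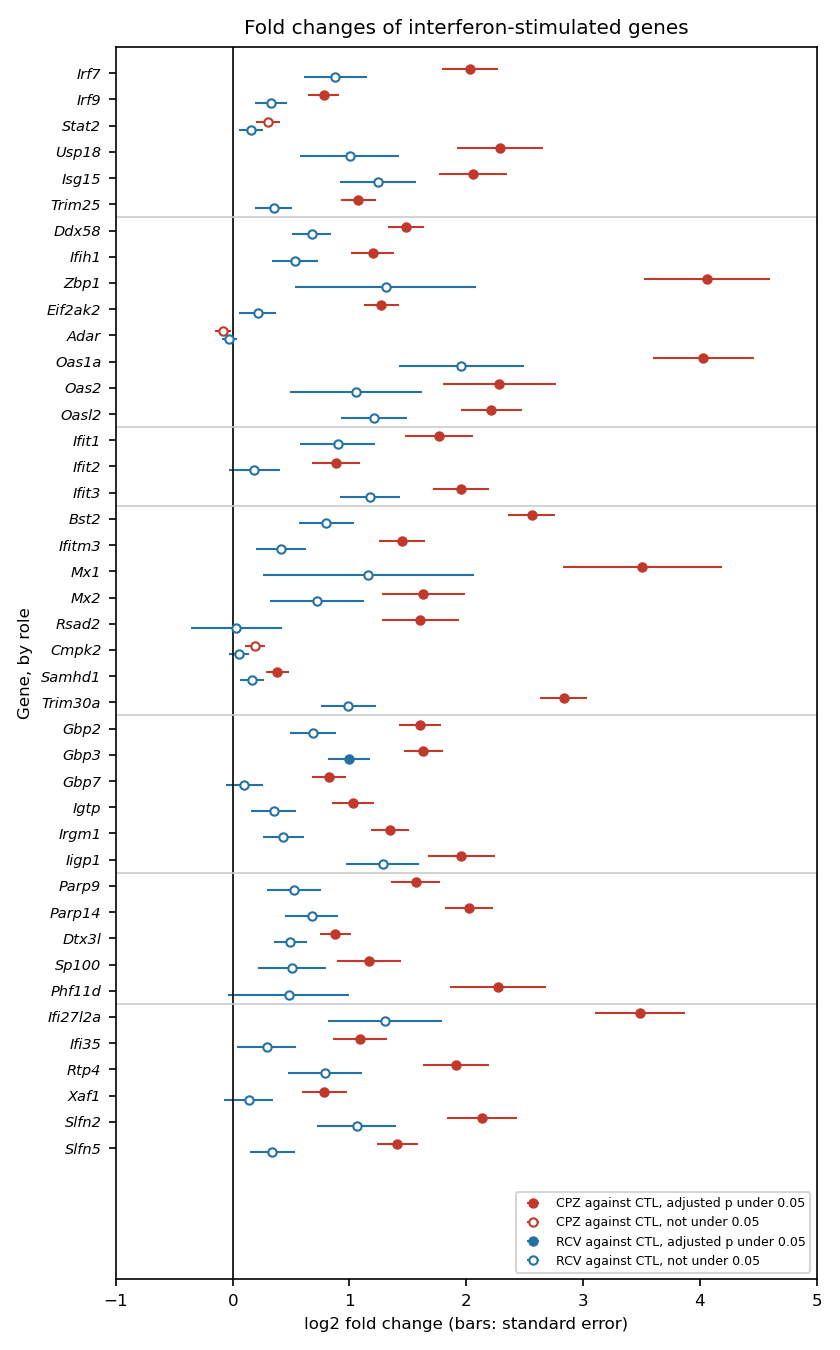
Log2 fold changes of the 42 tested members by role, CPZ against CTL in red and RCV against CTL in blue, with bars of 1 standard error and filled points where the adjusted p was below 0.05. Both series share the CTL libraries. The red points are filled for 39 genes and the blue for Gbp3 alone, and for every gene but Adar the red point lies to the right of the blue one.

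Among the 6 members that carry or regulate the signal, 5 were called higher in CPZ than CTL. The median log2 fold change of the group was 1.55, and 1.08 without Isg15. Irf9 (ENSMUSG00000002325.15, chromosome 14 from 55603571 to 55610030), the DNA-binding part of this complex, had 9.65, 13.8, 15.2, 11.5 and 9.54 CPM in the CTL libraries. It had 23.3, 19.4, 19.0 and 20.4 CPM in the CPZ and 16.3, 15.4, 14.4 and 13.7 CPM in the RCV libraries. Every CPZ value was above every other, while RCV and CTL overlapped. The fitted log2 fold change was 0.78 between CPZ and CTL (SE 0.13, adjusted p = 0.00069) and 0.33 for RCV against CTL (adjusted p = 0.70). Exons of Irf9 overlap those of Rnf31 on the same strand, and their reads may have been shared between these genes.

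Stat2 (ENSMUSG00000040033.16, chromosome 10 from 128270559 to 128292849), a STAT protein of the same complex, was at 26.0, 30.0, 27.5, 24.6 and 22.7 CPM in CTL and at 37.7, 29.7, 30.8 and 31.2 CPM in CPZ libraries. In RCV libraries it was at 30.2, 26.1, 33.7 and 26.9 CPM. The groups overlapped, and the log2 fold change of 0.30 between CPZ and CTL was not called (SE 0.10, adjusted p = 0.072). Without CTL replicate 2 it was 0.36 (adjusted p = 0.0405). Irf7, the factor that amplifies type I interferon production, rose by 2.03, Usp18, which removes ISG15 from proteins and damps the receptor, by 2.29, and Isg15, a ubiquitin-like modifier, by 2.06 on the log2 scale. Trim25, a ubiquitin ligase that activates RIG-I, rose by 1.08. Exons of Irf7 overlap those of Phrf1. Adjusted p values of these 4 ranged from 2.4e-05 to 0.00042. From CTL to RCV their fold changes were 0.88, 1.00, 1.25 and 0.35, none of them called.

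Of the 8 sensors of nucleic acid and RNA enzymes, 7 were called higher in CPZ, at a group median of 1.85. Zbp1, Oas1a and Oas2 of these passed the filter only with the CPZ libraries, and among the other 5 sensors 4 were called, at a median of 1.27. Zbp1 and Oas1a had the largest rises of all members, from very low levels. Zbp1 (ENSMUSG00000027514.14, chromosome 2 from 173206612 to 173218923), a sensor of Z-form nucleic acid that can trigger necroptosis, had 0.136, 0.450, 0.307, 0 and 0 CPM in CTL libraries. It reached 5.47, 2.67, 1.66 and 3.74 CPM in CPZ and stood at 0.440, 0.324, 0.577 and 0.651 CPM in RCV libraries. CPZ did not overlap with either group, and RCV overlapped with CTL. Its fitted log2 fold change between CPZ and CTL was 4.06 (SE 0.54, adjusted p = 7.1e-05), and its size rests on at most 3 counts in any CTL library. Oas1a (ENSMUSG00000052776.10, chromosome 5 from 120896256 to 120907521), which makes the 2-5A messenger that activates RNase L, was at 0.680, 0, 0.461, 0.153 and 0.550 CPM in CTL libraries. CPZ libraries had 9.08, 7.17, 3.88 and 5.16 CPM of it and RCV libraries 1.17, 2.11, 1.54 and 1.08 CPM. No group overlapped another, the RCV values being all above the highest CTL value. The log2 fold change was 4.03 between CPZ and CTL (SE 0.43, adjusted p = 9.1e-06) and 1.96 between RCV and CTL (SE 0.54, adjusted p = 0.21). Part of its counts were not whole, as reads can also fit the copy Oas1g, and the sum of Oas1a and Oas1g was 0.555 ± 0.253 CPM (SD, n = 5) in CTL, 7.86 ± 2.70 (SD, n = 4) for CPZ and 1.67 ± 0.743 (SD, n = 4) in RCV mice.

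Per transcript length, Adar and Oasl2 were the most abundant sensors and RNA enzymes, with means of 91.7 and 13.2 TPM over the 13 libraries. Oasl2 (ENSMUSG00000029561.17, chromosome 5 from 114896936 to 114912234), a relative of the OAS enzymes, had 3.26, 8.10, 4.61, 3.82 and 3.12 CPM in CTL, 22.9, 18.5, 17.5 and 26.9 CPM in CPZ, and 11.0, 12.1, 13.1 and 6.07 CPM in RCV libraries. All CPZ values were above the others, and RCV replicate 4 fell below CTL replicate 2. The fitted log2 fold change was 2.21 between CPZ and CTL (SE 0.26, adjusted p = 3.6e-05). Between RCV and CTL it was 1.21 (SE 0.28, adjusted p = 0.11), with 1.52 (adjusted p = 0.016) without CTL replicate 2 and 1.38 (adjusted p = 0.0479) without RCV replicate 4.

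Adar (ENSMUSG00000027951.16, chromosome 3 from 89715022 to 89753446), which edits adenosine to inosine in double-stranded RNA and has one interferon-driven promoter among several, showed no such difference. It had 206, 208, 199, 253 and 221 CPM in CTL, 202, 207, 203 and 209 CPM in CPZ, and 206, 206, 228 and 212 CPM in RCV libraries. These ranges overlapped throughout. Its fitted log2 fold change was -0.08 between CPZ and CTL (SE 0.07, adjusted p = 0.54), and its sign turned on the log2 TPM scale, at 0.013. Transcript forms of Adar were not analysed here. Among the other sensors, Ddx58, which encodes RIG-I, rose by 1.48, Ifih1, which encodes MDA5, by 1.20, the kinase gene Eif2ak2 (PKR) by 1.27 and Oas2 by 2.28 on the log2 scale, with adjusted p values up to 0.0043.

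All 3 IFIT genes, whose products bind viral RNA and block its translation, were called higher in CPZ than CTL, with a median of 1.77. They lie within a short stretch of chromosome 19, with 7.111 kb between Ifit2 and Ifit3 and 52.139 kb between Ifit3 and Ifit1. Ifit3 (ENSMUSG00000074896.3, chromosome 19 from 34583531 to 34588731) was at 5.85, 12.0, 5.69, 6.73 and 6.97 CPM in CTL, 38.5, 17.3, 29.8 and 30.5 CPM in CPZ, and 18.3, 15.7, 19.1 and 14.1 CPM in RCV libraries. Each RCV value was above each CTL value, and CPZ replicate 2 fell within the RCV range. The log2 fold change was 1.95 between CPZ and CTL (SE 0.24, adjusted p = 6.8e-05) and 1.18 between RCV and CTL (SE 0.25, adjusted p = 0.085). The latter was called without CTL replicate 2 (1.42, adjusted p = 0.017), CPZ replicate 1 (1.17, adjusted p = 0.0456) or CPZ replicate 2 (1.18, adjusted p = 0.0195). Ifit3 shares reads with its near-identical copy Ifit3b, and its counts were not whole in any of the 13 libraries. The sum of the pair was 12.0 ± 3.89 CPM (SD, n = 5) in CTL, 42.1 ± 10.3 (SD, n = 4) for CPZ and 25.7 ± 0.872 (SD, n = 4) in RCV mice.

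Ifit2 (ENSMUSG00000045932.12) had 14.5, 9.90, 14.8, 9.63 and 10.8 CPM in CTL, 34.3, 17.1, 16.9 and 20.5 CPM in CPZ, and 13.9, 13.9, 14.6 and 11.7 CPM in RCV libraries. CPZ replicate 1 stood apart from the other CPZ libraries, and RCV lay within the CTL range. The fitted log2 fold change between CPZ and CTL was 0.89 (SE 0.20, adjusted p = 0.0099), a call that was lost on the log2 TPM scale with adjusted p values up to 0.115, and between RCV and CTL it was 0.18 (adjusted p = 0.98). Ifit1 rose by 1.77 between CPZ and CTL (SE 0.29, adjusted p = 0.00061), with 0.90 between RCV and CTL (adjusted p = 0.49). Between CPZ and RCV, 0 of the 3 IFIT genes were called, with log2 fold changes of 0.70 to 0.87 and all 3 below an unadjusted p of 0.05. DESeq2 called 2 of the 3, Ifit2 and Ifit3, and limma-voom 0. With the quasi-likelihood test, the threshold was passed by Ifit2 without CPZ replicate 3 (adjusted p = 0.0386), Ifit3 without CTL replicate 2 (adjusted p = 0.0266) and Ifit3 without CPZ replicate 2 (adjusted p = 0.0113). The difference between this group and the others was not tested.

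Of the 8 restriction factors, which block single steps of viral replication, 7 were called higher in CPZ, at a median of 1.62, and 1.53 without Mx1 and Mx2. Bst2 (ENSMUSG00000046718.8, chromosome 8 from 71534255 to 71537456), the tetherin that holds budding virus at the cell surface, was at 2.99, 1.50, 2.00, 1.53 and 2.93 CPM in CTL, 15.6, 12.3, 12.6 and 11.5 CPM in CPZ, and 3.23, 4.37, 4.43 and 3.25 CPM in RCV libraries. The groups were fully separate, with RCV just above CTL. Its fitted log2 fold change was 2.56 between CPZ and CTL (SE 0.20, adjusted p = 7.6e-07), 0.80 between RCV and CTL (SE 0.24, adjusted p = 0.29) and 1.76 between CPZ and RCV (SE 0.21, adjusted p = 0.00025). Trim30a (ENSMUSG00000030921.17, chromosome 7 from 104409025 to 104465193), of the TRIM family of ubiquitin ligases, had 1.63, 3.30, 1.69, 3.06 and 2.20 CPM in CTL, 21.0, 15.9, 13.5 and 17.7 CPM in CPZ, and 3.81, 5.18, 4.81 and 5.20 CPM in RCV libraries. It too separated the 3 groups, with 2.83 between CPZ and CTL (SE 0.20, adjusted p = 3.4e-07) and 0.99 between RCV and CTL (SE 0.24, adjusted p = 0.11). Summed with its copy Trim30d, it came to 3.93 ± 1.39 CPM (SD, n = 5) in CTL, 24.5 ± 6.54 (SD, n = 4) for CPZ and 7.63 ± 0.972 (SD, n = 4) in RCV mice.

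Ifitm3 (ENSMUSG00000025492.6, chromosome 7 from 141009586 to 141010770), which stops virus from fusing with endosomal membranes, was the most abundant restriction factor per transcript length, at a mean of 45.9 TPM. It had 6.25, 10.5, 6.45, 7.49 and 4.22 CPM in CTL, 23.3, 16.9, 14.3 and 22.3 CPM in CPZ, and 9.38, 9.56, 9.05 and 9.54 CPM in RCV libraries. The RCV values lay close together, inside the CTL range. Its log2 fold change was 1.45 between CPZ and CTL (SE 0.20, adjusted p = 8.5e-05). Mx1 (ENSMUSG00000000386.16), a dynamin-like GTPase gene, had 0.136, 0.600, 0.615, 0 and 0.367 CPM in CTL, 9.36, 1.58, 2.08 and 3.36 CPM in CPZ, and 0.733, 1.46, 0.192 and 0.651 CPM in RCV libraries. CPZ replicate 1 was far above the other CPZ libraries. The log2 fold change of 3.51 between CPZ and CTL (SE 0.68, adjusted p = 0.0028) rests on at most 4 counts per CTL library, and Mx2 rose by 1.63. Mx1 and Mx2 are both annotated as polymorphic pseudogenes. Their sum was 1.22 ± 0.215 CPM (SD, n = 5) in CTL, 6.91 ± 4.71 (SD, n = 4) for CPZ and 2.21 ± 0.842 (SD, n = 4) in RCV mice.

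Samhd1 (ENSMUSG00000027639.16), which depletes nucleotides needed for reverse transcription, rose least of the called members. It was at 23.4, 26.0, 19.5, 24.2 and 22.4 CPM in CTL, 34.4, 28.8, 29.1 and 28.1 CPM in CPZ, and 23.5, 29.6, 24.2 and 26.2 CPM in RCV libraries. The CPZ values were all above CTL and overlapped with RCV. The fitted log2 fold change between CPZ and CTL was 0.38 (SE 0.10, adjusted p = 0.016), and the call was lost without CPZ replicate 1 (0.32, adjusted p = 0.0755). Rsad2, which encodes viperin, and Cmpk2, a mitochondrial nucleotide kinase gene, are neighbours on chromosome 12, 12.751 kb apart and transcribed away from each other. Rsad2 ran from 0.764 to 4.35 CPM in CTL, 4.50 to 8.07 in CPZ and 1.73 to 2.39 in RCV libraries, with a log2 fold change of 1.61 between CPZ and CTL (SE 0.33, adjusted p = 0.0036). Cmpk2 ran from 20.3 to 25.5 CPM in CTL, 25.5 to 30.3 in CPZ and 23.2 to 26.9 in RCV libraries, and its 0.19 was not called (SE 0.08, adjusted p = 0.19).

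**Figure D4:**
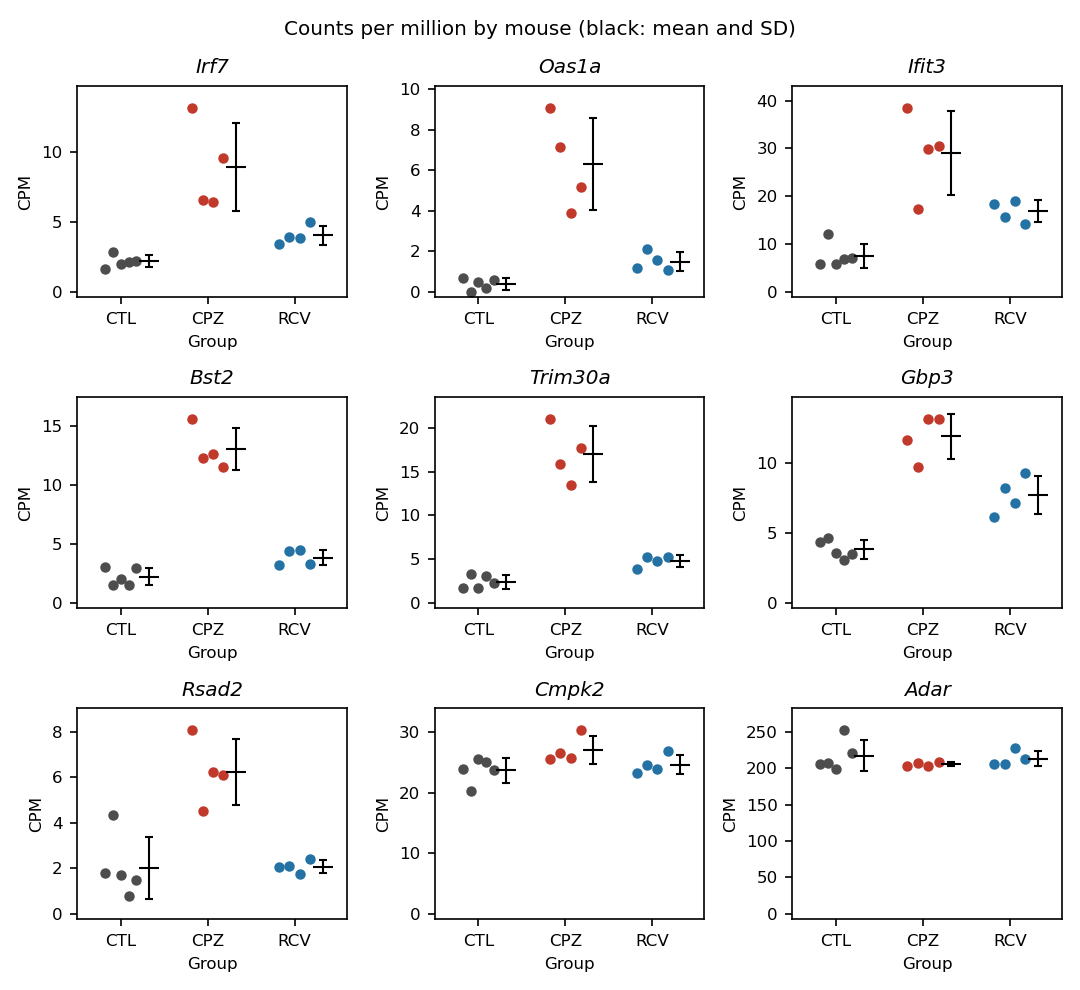
CPM in each mouse for 9 members (Irf7, Rsad2 and Cmpk2 were picked after their values were seen), with the mean and SD of each group in black. Irf7, Oas1a, Bst2, Trim30a and Gbp3 separate all 3 groups. Rsad2 in RCV mice lies within the CTL range. Cmpk2 in CPZ mice lies near or above the top of the CTL range but was not called, and Adar is at similar levels in all groups.

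The 6 interferon-inducible GTPase genes, whose products coat and break open vacuoles that hold bacteria or parasites, were called higher in CPZ without exception. Their median log2 fold change was 1.48. Gbp3 (ENSMUSG00000028268.14, chromosome 3 from 142560026 to 142573209) was at 4.35, 4.65, 3.53, 3.06 and 3.48 CPM in CTL, 11.7, 9.72, 13.2 and 13.2 CPM in CPZ, and 6.16, 8.26, 7.12 and 9.32 CPM in RCV libraries. No group overlapped another. Its fitted log2 fold change was 1.63 between CPZ and CTL (SE 0.17, adjusted p = 5.4e-06), 1.00 between RCV and CTL (SE 0.18, adjusted p = 0.020) and 0.64 between CPZ and RCV (SE 0.17, adjusted p = 0.028). Leaving out CTL replicate 3, 4 or 5 ended its call for RCV against CTL (adjusted p = 0.0629, 0.0595 and 0.0642), as did leaving out RCV replicate 2 or 4 (adjusted p = 0.101 and 0.0784). That between CPZ and RCV was lost without CPZ replicate 1, 3 or 4 (adjusted p = 0.0654, 0.0723 and 0.0803) or RCV replicate 1 or 3 (adjusted p = 0.107 and 0.0788).

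Gbp3 lies in a run of guanylate-binding protein genes with Gbp7 and Gbp2, at 9.876 kb and 47.392 kb. Its neighbour Gbp7 rose by 0.82 between CPZ and CTL, which was not called on the log2 TPM scale (adjusted p values up to 0.204), and was at 0.10 between RCV and CTL (adjusted p = 0.99), while Gbp2 rose by 1.60 and was at 0.68 (adjusted p = 0.26). Irgm1 (ENSMUSG00000046879.7, chromosome 11 from 48861968 to 48871683), a regulator of the other GTPases, had 5.44, 8.25, 9.53, 7.19 and 8.99 CPM in CTL, 23.0, 15.9, 20.8 and 20.3 CPM in CPZ, and 10.8, 10.5, 8.08 and 13.01 CPM in RCV libraries. CPZ was apart from both other groups. The log2 fold change was 1.35 between CPZ and CTL (SE 0.16, adjusted p = 2.8e-05) and 0.43 for RCV against CTL (adjusted p = 0.65). Igtp rose by 1.03 and Iigp1 by 1.96. Exons of Igtp overlap those of Irgm2, and the sum of both was 8.59 ± 0.845 CPM (SD, n = 5) in CTL and 18.3 ± 2.32 (SD, n = 4) in CPZ mice.

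The 5 genes of PARP proteins, DTX3L and nuclear bodies were also all called higher in CPZ than CTL, with a median of 1.57, and 1.37 without Phf11d. Parp9 (ENSMUSG00000022906.15, chromosome 16 from 35938470 to 35972605), which works with the ubiquitin ligase DTX3L at damaged DNA, had 3.53, 5.25, 5.53, 4.13 and 2.38 CPM in CTL, 15.8, 11.1, 11.0 and 12.1 CPM in CPZ, and 4.84, 6.32, 7.89 and 5.20 CPM in RCV libraries. CPZ stood apart, and RCV overlapped with CTL. Its log2 fold change was 1.57 between CPZ and CTL (SE 0.21, adjusted p = 7.4e-05). Dtx3l, on the opposite strand with exons that overlap Parp9, rose by 0.88 (SE 0.13, adjusted p = 0.00025), and reads from the overlap may have been counted for either gene. Parp14, 54.966 kb from Dtx3l, rose by 2.02 (SE 0.20, adjusted p = 4.8e-06).

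Sp100 (ENSMUSG00000026222.16), which encodes a protein of nuclear bodies, was at 2.72, 6.15, 3.69, 3.82 and 4.40 CPM in CTL, 15.1, 6.93, 7.35 and 8.01 CPM in CPZ, and 6.74, 7.29, 3.85 and 5.42 CPM in RCV libraries. CPZ replicate 1 was far above the other CPZ libraries, of which replicate 2 lay inside the RCV range. The fitted log2 fold change between CPZ and CTL was 1.17 (SE 0.27, adjusted p = 0.0099), and it was not called on the log2 TPM scale without a filter (adjusted p = 0.0827). Phf11d rose by 2.27 (SE 0.41, adjusted p = 0.0012).

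Among the 7 other effectors, 6 could be tested and were called higher in CPZ, at a median of 1.66, and 1.41 without Ifi27l2a. Ifi27l2a (ENSMUSG00000079017.3, chromosome 12 from 103442167 to 103443680), which encodes a small mitochondrial membrane protein, had 0.408, 0.900, 0.307, 0.306 and 0.367 CPM in CTL, 7.06, 4.86, 3.47 and 6.07 CPM in CPZ, and 1.32, 1.94, 0.770 and 0.434 CPM in RCV libraries. CPZ lay above both other groups, which overlapped. Its fitted log2 fold change was 3.49 between CPZ and CTL (SE 0.38, adjusted p = 1.1e-05) and 1.30 between RCV and CTL (SE 0.49, adjusted p = 0.55). CTL libraries held few counts of this short transcript, which was nevertheless at a mean of 15.4 TPM, the highest of its group.

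Xaf1 (ENSMUSG00000040483.15), a gene linked to apoptosis, was at 4.89, 5.10, 7.53, 4.28 and 4.95 CPM in CTL, 10.5, 7.90, 8.60 and 9.94 CPM in CPZ, and 6.89, 7.13, 3.85 and 5.42 CPM in RCV libraries. CTL replicate 3 and the lowest CPZ library lay close together, and RCV overlapped with CTL. The log2 fold change between CPZ and CTL was 0.78 (SE 0.19, adjusted p = 0.013), and the call was lost without CPZ replicate 1 (0.73, adjusted p = 0.053). Of 23 alternatives 5 ended it, namely leaving out this library, a replicate block and the 3 fits on the log2 TPM scale (adjusted p values up to 0.392). The Schlafen genes Slfn2 and Slfn5, the first a regulator of T cell quiescence, rose by 2.13 and 1.41, Rtp4 by 1.91 and Ifi35 by 1.09. Ifi44 did not pass the filter on low counts. It ran from 0.367 to 0.750 CPM in CTL, 1.46 to 2.45 in CPZ and 0.577 to 1.32 in RCV libraries, and without the filter its log2 fold change between CPZ and CTL was 1.84 (SE 0.40, adjusted p = 0.0016).

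RCV mice were below CPZ mice in 26 members. Among them, Zbp1, Oas1a, Mx1, Phf11d and Ifi27l2a passed the filter only because of the CPZ libraries and could hardly have failed to differ. Of the 26 calls, 10 were kept under each alternative in which the gene could be tested (22 for Ifi27l2a, 23 for the others). These 10 were Ddx58, Eif2ak2, Bst2, Ifitm3, Gbp2, Irgm1, Parp9, Parp14, Ifi27l2a and Slfn5. Their log2 fold changes between CPZ and RCV ran from 0.81 for Ddx58 to 2.18 for Ifi27l2a. Bst2, Parp14 and Eif2ak2 were higher in CPZ by 1.76, 1.35 and 1.06, with adjusted p values of 0.00025, 0.00092 and 0.00066. By role, 3 of 6 signalling genes, 6 of 8 sensors, 5 of 8 restriction factors, 5 of 6 GTPases, 3 of 5 PARP and nuclear genes and 4 of 6 other effectors were called. Members whose calls were lost without CPZ replicate 1 included Usp18 (adjusted p = 0.043, and 0.152 without it), Mx1 (0.044 and 0.166) and Slfn2 (0.041 and 0.160). Their calls did not depend on this library alone. They were also lost without several other libraries, and under 13, 16 and 12 of 22 alternatives.

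Interferons themselves were at or below the limit of detection. Of 21 interferon genes of types I, II and III, 19 had 0 counts in all 13 libraries. Over these libraries, a count of 0 allows up to 0.0350 CPM, and up to 0.651 CPM in the shallowest library, by counting error alone. Ifne had 1 count in all and Ifng, the type II interferon, 2 counts. A difference between the groups was thus not detectable at this depth.

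**Figure D5:**
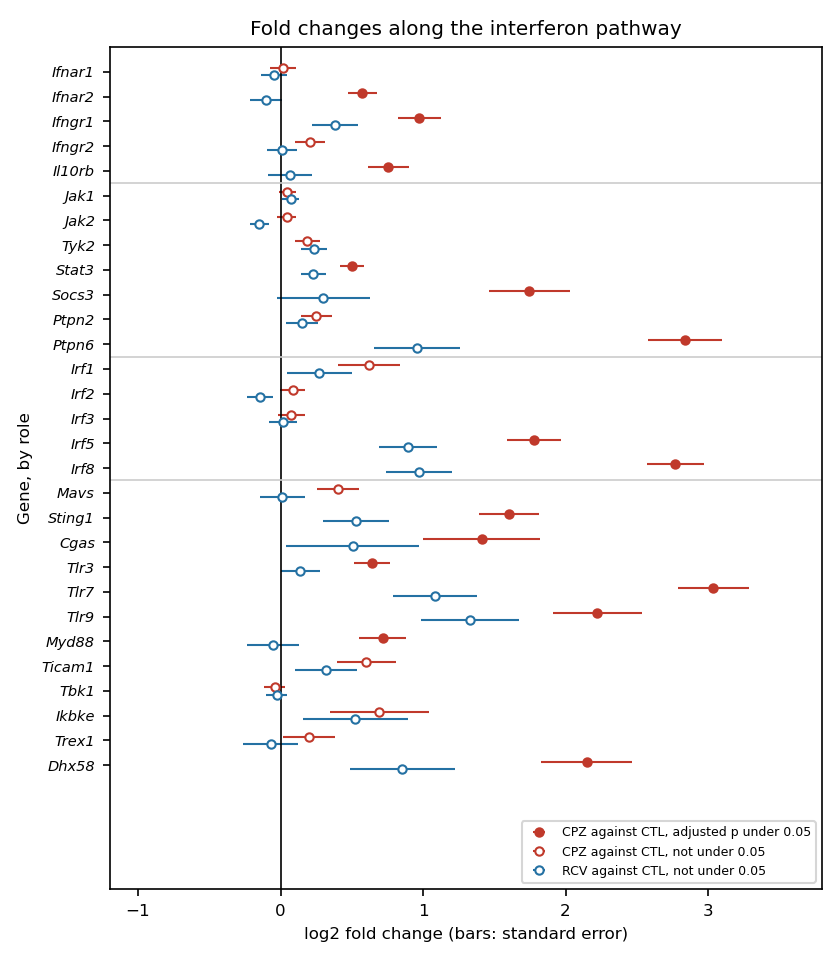
Log2 fold changes of receptors, kinases, STATs and inhibitors, regulatory factors and nucleic acid sensors of the pathway, CPZ against CTL in red and RCV against CTL in blue, with bars of 1 standard error and filled points where the adjusted p was below 0.05. Tlr7 lies farthest to the right, at 3.04 in CPZ against CTL. The plot leaves out 1 tested gene of these lists.

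Of 114 further genes of the pathway, listed by role, 66 could be tested. Of these, 39 were called higher and 0 lower in CPZ than in CTL, where 7.66% of all tested genes were called higher and 2.5% lower. Other interferon-stimulated genes made up 36 of the 66 tested and 23 of the 39 called. Among the 60 that passed the filter on the CTL and RCV libraries alone, 34 were called higher, at a median of 0.63. Between RCV and CTL, 2 of the 66 were called higher (0.36% of all tested genes) and 0 lower, and between CPZ and RCV 26 were called higher (5.13%) and 0 lower. Among 5 receptor chains that could be tested, Ifnar2, Ifngr1 and Il10rb rose by 0.57, 0.98 and 0.76 on the log2 scale (adjusted p up to 0.0019). Ifnar1, the other chain of the type I receptor, was at 0.02 (SE 0.09, adjusted p = 0.95) and Ifngr2 at 0.21 (SE 0.10, adjusted p = 0.27). The kinase genes Jak1, Jak2 and Tyk2 were at 0.05, 0.04 and 0.19, none of them called. Stat3 was called higher in CPZ than CTL, by 0.50 (adjusted p = 0.00073).

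Among inhibitors of the pathway, Socs3 and Ptpn6 were called and the phosphatase gene Ptpn2 was not, at 0.25 (adjusted p = 0.18). Socs3, an inhibitor of cytokine receptors, was higher in CPZ than CTL by 1.75 (SE 0.28, adjusted p = 0.00046), and Ptpn6, a phosphatase gene of blood and microglial cells, by 2.84 (SE 0.26, adjusted p = 3.2e-06). Of the other interferon regulatory factors, Irf5 and Irf8, both expressed in microglia, rose by 1.78 and 2.77, while Irf1, Irf2 and Irf3 were at 0.62, 0.09 and 0.08 and not called. Among 12 sensing receptors and adaptors, 7 were called higher. Tlr7, Tlr9, Dhx58, Sting1, Tlr3 and Myd88 rose by 3.04, 2.22, 2.15, 1.60, 0.64 and 0.72, and Cgas by 1.41 (adjusted p = 0.037), a call that was lost without 5 of the 13 libraries in turn, with adjusted p values up to 0.105. The adaptor and kinase genes Mavs, Ticam1, Tbk1 and Ikbke and the nuclease gene Trex1 were at 0.40, 0.60, -0.04, 0.69 and 0.20 and not called.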

How the data were processed

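Hemisphere RNA of each mouse gave 1 library, 5 for CTL, 4 for CPZ and 4 for RCV (poly(A)-selected, paired-end, Illumina HiSeq). The submitters' processing notes name STAR, RSEM and mm10, with no roles given. The authors deposited estimated counts per gene, which need not be whole because reads shared by copies are divided, and TPM values, which are scaled to gene length and library total. Of 55493 rows, 92 were spike-ins, all at 0, and 0 columns belonged to other samples. The estimated counts were rounded, filtered with filterByExpr and scaled by TMM, and all 13 libraries were fitted together with edgeR's robust quasi-likelihood F test (edgeR 4.0.16, R 4.3.3), with Benjamini-Hochberg adjustment over 14985 genes and a threshold of 0.05. Fold changes are on the log2 scale, and log2 CPM levels used a prior count of 2. Limits for genes at 0 counts (3 counts) cover counting error only.

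The members and gene lists were chosen with earlier results of these data known. Values per library are given for the 2 members of each role group with the highest mean TPM, the 6 with the largest rise, the 3 with the largest fall (0 were called lower), members called between RCV and CTL and those that moved against their role group, and the marker lists are summarised only. Of the gene identifiers, 98.1% matched GENCODE M21 (GRCm38), which gave positions; promoter sequences are from RefSeq. The alternatives were edgeR with size factors of the DESeq2 kind in place of TMM, the Wald test of DESeq2 1.42.0 and limma-voom (limma 3.58.1). Further ones were log2 TPM with pseudocounts of 1 and 0.1, other filters, only the 2 groups compared, a replicate block and leaving out each library. The code was checked on simulated data. In the pathway lists, 1 gene is included in counts but not reported here. Age, and the week of collection for CPZ, were not adjusted for.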

Additional observations from a re-analysis of the deposited data

Results flagged for a closer look

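Single libraries stood apart from the rest of their group for 8 of the 129 combinations of a member and a group that were examined, by the gap to the nearest library relative to the group's range (Dixon's 95% critical values). Chance flags about 1 in 20, or 6.5 of 129. In CTL replicate 2, Ifit3 was at 12.0 CPM, against 5.69 to 6.97 in the other CTL libraries, Rsad2 at 4.35 CPM, against 0.764 to 1.77, and Ifi27l2a at 0.900 CPM, against 0.306 to 0.408. In CTL replicate 3, Xaf1 was at 7.53 CPM, against 4.28 to 5.10. In CTL replicate 5, Rtp4 was low, at 0.367 CPM, against 1.65 to 2.15. In CPZ replicate 1, Samhd1 was at 34.4 CPM, against 28.1 to 29.1 in the other CPZ libraries, Sp100 at 15.1 CPM, against 6.93 to 8.01, and Slfn5 at 36.4 CPM, against 19.1 to 21.6.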

How the results depend on the processing

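Of the 39 members called between CPZ and CTL, 32 were called under every alternative in which they could be tested. The same held for 0 of the 1 called between RCV and CTL and for 10 of the 26 between CPZ and RCV. The CPZ and CTL calls that some alternative ended were those of Xaf1, of Oas2, Ifit2, Mx2 and Gbp7 (each on the log2 TPM scale, with adjusted p values up to 0.126, 0.115, 0.134 and 0.204), of Sp100 and of Samhd1. With at least 10 counts required in every library, fewer genes could be tested. Between CPZ and CTL, 25 of 28 members and 25 pathway genes were then called, where 7.02% of all tested genes were called higher. The median of the members was 1.25 between CPZ and CTL and 0.43 between RCV and CTL. Between RCV and CTL, 1 pathway gene was called with this filter (0.146% of all tested genes higher). On the log2 TPM scale with a pseudocount of 1, with and without a filter, and of 0.1, the members called between CPZ and RCV were 13, 12 and 10 and the pathway genes 15, 11 and 10, where 2.63%, 1.31% and 2.15% of all tested genes were called higher, and 0 of either were called between RCV and CTL. The median was then 1.22 between CPZ and CTL with a pseudocount of 1, and 0.40 and, with 0.1, 0.49 between RCV and CTL. Between RCV and CTL, DESeq2's Wald test called 4 members and 7 pathway genes (0.834% of all genes higher). There limma-voom called 0 and 1 (0.0801%), and a fit without a filter 4 pathway genes (0.216%). A fit of these groups alone called 2 members (0.558% of all genes higher), with a median of 0.49. The cause of these differences was not tested.

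Leaving out each library in turn gave 37 to 40 members called between CPZ and CTL, 0 to 3 between RCV and CTL and 16 to 26 between CPZ and RCV, with medians of 1.46 to 1.72, 0.53 to 0.68 and 0.83 to 1.04. Pathway genes called ranged from 35 to 40, from 1 to 4 and from 18 to 29. The lowest value, 16, came without CPZ replicate 1.

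The sign turned for 4 members. Adar was 0.013 between CPZ and CTL and 0.034 between RCV and CTL on the log2 TPM scale, and its RCV values ran from -0.064 to 0.031 as libraries were left out. Between RCV and CTL, Xaf1 was -0.13 and -0.15 on the TPM scale with pseudocounts of 1 and 0.1, Rsad2 ran from -0.18 to 0.53 and Phf11d from -0.059 to 0.74 as libraries were left out.

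Same-numbered libraries were not paired in the main fit, and the values here cannot tell whether they shared a batch. The correlation of their deviations ran from -0.20 to 0.14 over 12 pairs, and 1 of 12 libraries was closest to its own number. With a replicate block, 38 members were called between CPZ and CTL, 0 between RCV and CTL and 19 between CPZ and RCV. Of all tested genes, 6.13%, 0.274% and 4.1% were called higher in these comparisons. Rsad2 was then at -0.022 between RCV and CTL. Depth limits the genes under a few counts per CTL library, such as Zbp1, Mx1 and Oas1a.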

Other observations

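Further interferon-stimulated genes outside the 43 were listed by family and are already counted among the 114 pathway genes above. Of the 36 that could be tested, 23 were called higher in CPZ than CTL, where 7.66% of all tested genes were called higher. The median log2 fold change of the 36 was 1.03. Among the 31 that passed the filter on low counts with the CTL and RCV libraries alone, 19 were called higher, at a median of 0.72. The genes named here were picked after their values were seen. The PYHIN genes of nucleic acid sensing held the largest changes, from near 0. Ifi207 was at 0 to 0.272 CPM in CTL and 3.05 to 11.7 CPM in CPZ libraries, with a log2 fold change of 5.30 (SE 0.49, adjusted p = 2.5e-06). Between RCV and CTL it was 3.31 (adjusted p = 0.028), a call that was lost without 7 of the 13 libraries in turn, with adjusted p values up to 0.109. Ifi204 and Ifi209 rose by 5.07 and 3.88, while Ifi203 of the same family was at 0.19 (adjusted p = 0.86). These genes lie in a cluster of similar copies, and how reads were divided among them was not tested.

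Among other families, the Schlafen genes Slfn9 and Slfn8 rose by 2.72 and 2.22, Ifi30, a thiol reductase of antigen processing, by 2.28, the helicase gene Ddx60 by 2.23, Uba7, which activates ISG15, by 1.65 and the antiviral zinc finger gene Zc3hav1 by 1.27. Pml, Tdrd7, Parp11 and Gbp4 were at 0.14, 0.06, 0.12 and 0.01 and not called.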
